A study of Mus musculus with 7 samples.

Results

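The 2 libraries described here map CTCF and CTCFL, a related protein of the germ line also named BORIS, in NIH3T3 mouse fibroblasts (3T3 below) that carried an integrated Ctcfl construct. They are 2 of the 7 samples of a series that mapped both factors in 3T3 and P19 embryonal carcinoma cells by chromatin immunoprecipitation and sequencing. The samples were chosen by their titles, and their lists hold 62417 of the 100560 peaks of the 4 samples with a peak list used here. Both groups share the cell line, the integrated constructs pBI-EGFP-FLAG-mCtcfl and pTA-N, and the treatment. The labels give 2 µg/ml doxycycline in the medium, and 48 h without it for induction. They do not say in which of these states each library was made, nor whether the cells were 1 clone. The groups differ in the antibody: N2.2 for CTCF and S6 for CTCFL. The libraries of 3T3 cells lacking the construct and the P19 input are not analysed here, so how many CTCFL peaks would be seen without the construct was not tested. The lists measure binding only, so neither the fibroblast identity of the cells nor the level of CTCFL was checked against marker genes. The P19 cells used below for comparison carry the same constructs and list the same treatment, although their titles call them controls.

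CTCF binds DNA through a row of zinc fingers, halts the cohesin complex that extrudes chromatin loops, and insulates genes from distant enhancers. CTCFL has a closely similar row of zinc fingers but different ends. It is normally made in male germ cells and not in fibroblasts. Which sites CTCF occupied in these 3T3 cells before CTCFL was introduced was not tested here. Whether the factors lie at the same position, side by side or apart is the question this pair of libraries can address.

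Each group had 1 library. Differences therefore have no replicates behind them, and p-values are not given. The 95% intervals are exact (Clopper-Pearson for shares, order statistics for medians) and reflect counting error alone, because peaks near each other are not independent. Read depth is not given in the sources used here. Positions are in mm9 and are not placed in genes, exons or UTRs, because no annotation of that build was used here. The lists give no summits, so the centre of a peak is its midpoint.

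The 3T3 CTCF list held 45653 peaks and the CTCFL list 16764. CTCF peaks were 342 bp wide at the median (quartiles 252 and 486) and CTCFL peaks 283 bp (215 and 416). In each list no peak overlapped another of its own list. Of the CTCFL peaks 10270, 61.3%, overlapped a CTCF peak by at least 1 bp, and 6494 did not. When the overlap had to cover 50% of each peak, the share was 37.8% (37.1 to 38.6). Of the CTCF peaks 9660 overlapped CTCFL and 35993 did not. Joining peaks that overlapped gave 9352 sites with both factors.

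Most shared sites were a simple pair. A lone CTCF peak met a lone CTCFL peak at 8300 of the 9352 sites, 88.8% (88.1 to 89.4). At 749 sites, 8.01% (7.47 to 8.58), several CTCFL peaks lay on 1 CTCF peak. The converse, several CTCF peaks under 1 CTCFL peak, was found at 209 sites, 2.23% (1.94 to 2.56). The remaining 94 sites held several peaks of both. In P19 cells 3899 of 3944 sites, 98.9% (98.5 to 99.2), were simple pairs. P19 peaks were wider (medians 636 bp for CTCF and 581 bp for CTCFL) and P19 lists sparser, and the part of these in the difference was not tested.

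Within the simple pairs the peak centres lay close to each other. Pairs were picked by overlap, so their centres can be no farther apart than the mean of their peak widths. The part of this rule in the closeness was not tested. The median distance between the CTCF and the CTCFL centre was 61 bp (59.5 to 62.5), with quartiles of 26.5 and 116 bp. Centres were within 25 bp at 1972 of the 8300 pairs, 23.8% (22.8 to 24.7), within 50 bp at 42.5% (41.5 to 43.6), within 100 bp at 69.5% (68.5 to 70.5) and within 200 bp at 90.0% (89.3 to 90.6). The offset had no side: the CTCFL centre was at the higher coordinate in 4132 of the 8284 pairs with unequal centres, 49.9% (48.8 to 51.0). The P19 median was 69.5 bp (67 to 72), above the 3T3 interval, in pairs whose peaks were wider.

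**Figure D1:**
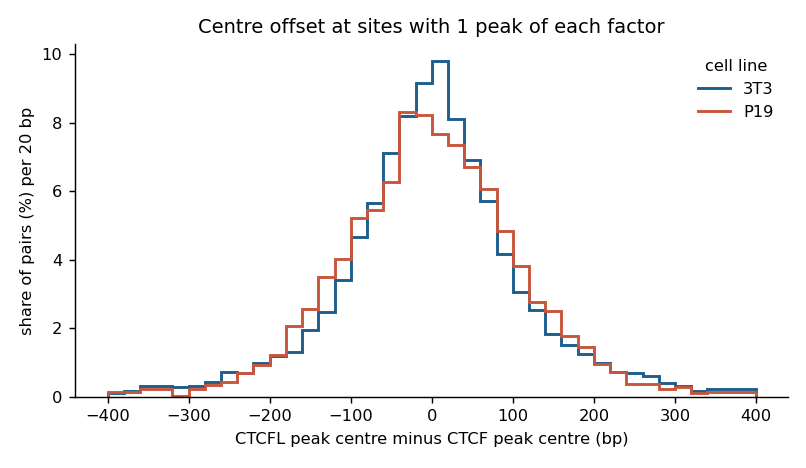
Signed distance from the CTCF to the CTCFL peak centre (horizontal axis, bp) against the share of pairs per 20 bp (vertical axis, %) at sites with 1 peak of each factor, as stepped lines for 3T3 (8300 pairs) and P19 (3899 pairs). Both lines peak near 0 and fall off alike to either side, and 90.0% of the 3T3 pairs lie within 200 bp.

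The offset grew with the width of the CTCF peak. For CTCF peaks of at most 250 bp it was 35.8 bp at the median (33 to 39.5, 870 pairs), and for those over 1000 bp it was 141 bp (124 to 151, 843 pairs). The 4 width groups between had medians of 44.5, 55, 64 and 84.3 bp in rising order of width. Pairs were picked by overlap, so wider peaks allow larger offsets, and the part of this rule in the growth was not tested. Where both peaks were at most 300 bp wide, the median offset was 34.5 bp (32 to 37) over 1235 pairs. Overlap keeps the offset of such narrow peaks under 300 bp, and the part of this limit in the median was not tested. Over all pairs, the offset divided by the distance from the CTCF centre to its edge was 0.245 at the median (0.239 to 0.252). This relative offset did not grow with width: it was 0.361 for CTCF peaks of at most 250 bp, 0.205 from 700 to 1000 bp and 0.227 above. The CTCFL centre lay within the CTCF peak in 7968 pairs, 96% (95.6 to 96.4).

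Offset followed score only weakly. Over the 8300 pairs Spearman's rho between the size of the offset and the CTCFL score was -0.06, and with the CTCF score it was -0.0042. In 10 equal groups of the CTCFL list by score, the pairs of the lowest group had a median offset of 72.8 bp (66 to 81.5) and those of the highest 57 bp (53 to 61). Over the same groups the median CTCF width of the pairs went from 457 to 760 bp. Divided by the distance from the CTCF centre to its edge, the median offset was 0.155 in the highest group against 0.350 in the lowest. The divisor grows with CTCF width, and the median CTCFL width also rose, from 264 to 567 bp. The part of width in this fall was not tested.

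CTCFL peaks were mostly nested in the CTCF peak. In 4455 pairs, 53.7% (52.6 to 54.8), the CTCFL peak lay within the CTCF peak, and in 518, 6.24% (5.73 to 6.78), the CTCF peak lay within the CTCFL peak. The peaks were staggered in 3326 pairs, 40.1% (39.0 to 41.1), and 1 pair had the same start and end. CTCFL was the narrower peak in 80.8% of pairs (80.0 to 81.7), with a median width of 328 bp against 523 bp for CTCF. In P19 the CTCFL peak was nested in 38.6% of pairs (37.0 to 40.1), and the reverse nesting was seen in 16.0% (14.9 to 17.2). The overlap was rarely marginal: it was under 50 bp in 65 of the 3T3 pairs, 0.783%, while 93 CTCFL peaks without CTCF missed a CTCF peak by at most 50 bp.

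The highest ranking pairs with both scores below 3100, a value at which many CTCF peaks are tied, show this range of geometry. At chromosome 6 117829347 to 117829842 the CTCF peak scored 3058 and its CTCFL peak, 117829239 to 117829767, scored 1930, with centres 91.5 bp apart. At chromosome 7 the CTCFL peak 117987316 to 117988218 (score 1819) enclosed the CTCF peak 117987416 to 117988098 (score 3021), with centres 10 bp apart. On chromosome 1 a CTCFL peak of 367 bp, 88421795 to 88422161 (score 2042), sat in a CTCF peak of 956 bp, 88421360 to 88422315 (score 2889), 140.5 bp from its centre. On chromosome 13 the wide peaks 32893598 to 32894978 of CTCF (score 2840) and 32893659 to 32894879 of CTCFL (score 1968) had centres 19 bp apart. The chromosome 7 pair had no P19 peak, and the other pairs had P19 peaks of both factors.

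The largest offsets were found at wide CTCF peaks with CTCFL at the rim. They were 870 bp at chromosome 4 99322526 to 99324333, 813 bp at chromosome 15 85501281 to 85502587 and 798 bp at chromosome 8 48759005 to 48761250, all CTCF peaks without a P19 peak. Their CTCFL peaks, 99324095 to 99324504 (score 67.5), 85500581 to 85501661 (score 62.0) and 48760592 to 48761259 (score 469), overlapped only an end of the CTCF peak.

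Partners ranked together, most of all at the top. Each list was cut into 10 equal groups by score, 10 being the highest. The groups are equal in a whole list but not among the 8300 pairs, of which 2400 had a group 10 CTCF peak and 1363 a group 10 CTCFL peak. In 976 pairs, 11.8%, both peaks were in group 10, and this was the fullest of the 100 combinations. Of the 1363 pairs with a group 10 CTCFL peak, 71.6% (69.1 to 74.0) had a group 10 CTCF peak. Taken from CTCF, 40.7% (38.7 to 42.7) of the 2400 group 10 pairs had a group 10 CTCFL peak. A CTCFL peak of groups 1 to 4 met CTCF peaks of much the same rank, with median CTCF score percentiles between 54.0 and 55.2. That median then climbed to 95.6 in group 10. Over all pairs Spearman's rho of the scores was 0.52 in 3T3, and 0.15 over the 3899 P19 pairs. Widths of partners had rho 0.61 in 3T3 and 0.24 in P19. Width and score also went together within the 3T3 pairs, with rho 0.48 for CTCF and 0.49 for CTCFL, and the partners share the genome position and may share the control library.

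**Figure D2:**
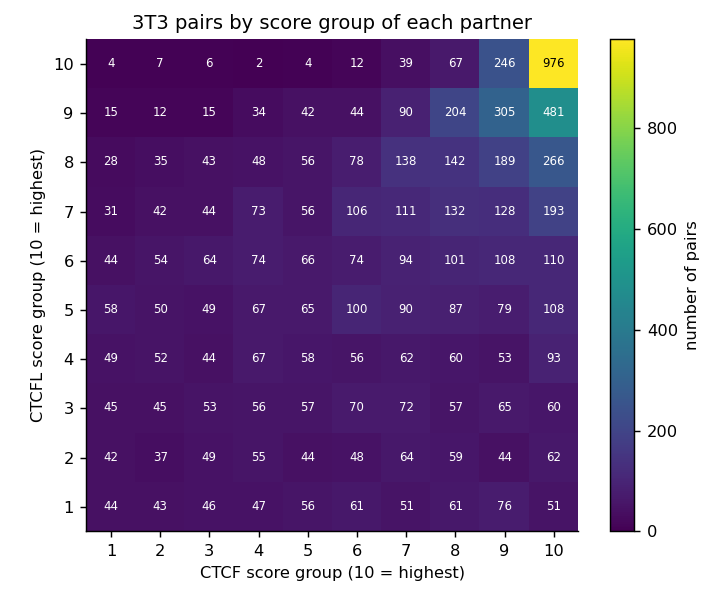
Number of 3T3 pairs in each combination of CTCF score group (horizontal axis) and CTCFL score group (vertical axis), each list being cut into 10 equal groups with 10 the highest, printed in the cell and shown by colour. The count is 976 in the upper right cell, and the lower rows are nearly even across CTCF groups.

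Pairs with opposite ranks existed in both directions. Strong CTCF with weak CTCFL was the more extreme kind by score percentile within each list. The CTCFL minus the CTCF percentile reached -97.6 in that direction and 88.4 in the other. High CTCF ranks were the commoner among pairs, with 2400 pairs in CTCF group 10 and 360 in group 1. The part of this in the order was not tested. At chromosome 11 119926451 to 119927188 the CTCF peak scored 3100 and its CTCFL peak 50.5, just above the lowest score in the list. CTCF scores of 3012 and 2760 met CTCFL scores of 50.5 at chromosome 15 101896093 to 101896558 and chromosome 19 5087816 to 5088279. In the other direction CTCFL scored 262 over a CTCF peak of 50.4 at chromosome 7 36431837 to 36432650. It scored 330 over 52.0 at chromosome 3 68809741 to 68810244, and 307 over 51.5 at chromosome 8 107821427 to 107822068. None of these last sites had a P19 peak of either factor. Of the sites where CTCF ranked higher, the chromosome 11 site had P19 peaks of both factors, the chromosome 15 site of CTCF, and the chromosome 19 site of neither. P19 status went with CTCF rank among all pairs. Up to CTCF score percentile 20, where the last sites lie, 25 pairs had a P19 CTCF peak and 712 had none. Above percentile 90, where the former lie, 1752 had it and 648 did not.

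The P19 CTCF list, which the choice of the 2 libraries did not use, divided the pairs into kinds with different shapes. Of the 8300 pairs 2396, 28.9% (27.9 to 29.9), had a P19 CTCF peak at the CTCF peak, and 5904 had none. The pairs had it less often than CTCF peaks without CTCFL, of which 16328 had a P19 CTCF peak and 19665 had none. Over all pairs the median offset was 61.5 bp (59 to 64.5) with and 60.5 bp (58.5 to 62.5) without a P19 peak. At low CTCF scores the offset was larger with a P19 peak. It was 120 bp (71 to 181, 25 pairs) against 52 bp (47.5 to 58.5, 712 pairs) up to score percentile 20, and 74.5 bp (60.5 to 101, 41 pairs) against 55 bp (51 to 59.5, 895 pairs) from there to 40. In the 4 groups above that the intervals overlapped. Scores differed over all pairs: the median CTCF score was 1480 with and 148 without a P19 peak, and the median CTCFL score 133 and 95.9. At the same rank of CTCF score, CTCFL peaks were wider where P19 had no CTCF. Between score percentiles 80 and 90 the median CTCFL width was 467.5 bp (449 to 484, 980 pairs) without a P19 peak and 281 bp (271 to 301, 313 pairs) with it. Above percentile 90 it was 548.5 bp (521 to 573, 648 pairs) and 345 bp (332 to 360, 1752 pairs). The CTCF peaks of these pairs differed the same way, 685.5 against 524 bp and 742.5 against 617.5 bp. Between percentiles 60 and 80 CTCFL peaks were 361.5 bp wide (345 to 371) without and 289 bp (275 to 304) with a P19 peak, and in the 3 groups below that the intervals overlapped.

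CTCF peaks without CTCFL did not show that order of widths. Between percentiles 80 and 90 they were 423 bp wide (401 to 448, 465 peaks) without a P19 CTCF peak and 453 bp (446 to 458, 2555 peaks) with it. Above percentile 90 the widths were 439 bp (398 to 481, 151 peaks) and 466 bp (457 to 473, 1634 peaks). The intervals overlapped in both groups. In each lower group the peaks with P19 CTCF were the wider, as at percentiles 40 to 60 with 364 bp (359 to 369) against 289 bp (283 to 296). Over all pairs the median CTCFL score was the higher with P19 CTCF, as given above, but 1752 of these 2396 pairs lay above CTCF percentile 90. At the same CTCF rank it was mostly the higher without P19 CTCF. Above percentile 90 it was 314 (278 to 333) without and 178 (167 to 192) with P19 CTCF, although the CTCF score was the lower without it, 1097 against 1985. From 80 to 90 it was 154 (145 to 163) against 86.2 (83.9 to 96.1). From 60 to 80 it was 99.2 (96.1 to 101) against 80.6 (76.5 to 88.7), and from 40 to 60 80.8 (78.9 to 84.2) against 72.0 (64.6 to 76.8). In the groups below that the intervals overlapped, with 77.6 against 69.1 from 20 to 40 and 73.0 against 80.1 up to 20. Several CTCFL peaks lay on 8.58% (7.93 to 9.27) of the CTCF peaks with CTCFL that had no P19 CTCF, and on 9.36% (8.28 to 10.5) of those that had it. Only above percentile 80 were the intervals apart, at 15.2% (13.2 to 17.3) against 7.56% (4.996 to 10.9) up to percentile 90 and 16.8% (14.3 to 19.6) against 10.5% (9.15 to 11.9) beyond it. A wider peak has more room for several partners, and the part of width in this was not tested.

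**Figure D3:**
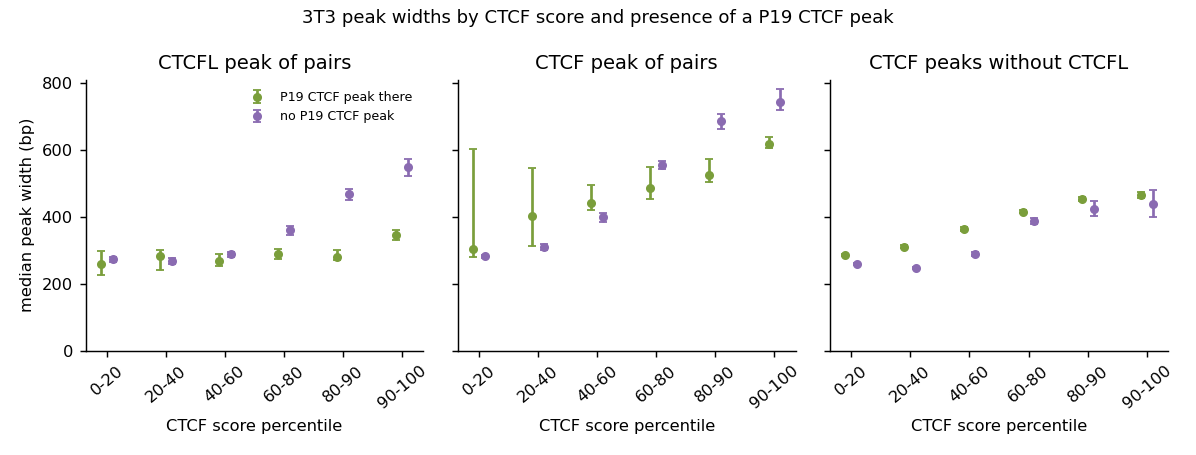
Median 3T3 peak width (vertical axis, bp) by percentile of the CTCF score (horizontal axis) for CTCFL peaks of simple pairs, CTCF peaks of those pairs and CTCF peaks without CTCFL, with (green) and without (purple) a P19 CTCF peak; bars are exact 95% intervals of the median. In pairs above percentile 80 the purple points lie higher, with CTCFL at 467.5 against 281 bp and at 548.5 against 345 bp, while without CTCFL they do not.

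At sites with several peaks the arrangement of the CTCFL peaks was described for the commonest kind. Of the 698 sites with 1 CTCF and 2 CTCFL peaks, 628, 90.0% (87.5 to 92.1), had a CTCFL centre on either side of the CTCF centre. Peaks of a list do not overlap, and a pair of them on 1 CTCF peak tends to straddle its midpoint by geometry alone. The CTCFL centres were 467.5 bp apart at the median (451.5 to 484). The gap between the CTCFL peaks was short, 84.5 bp (78 to 93), and in 590 of the 698 sites it was under 200 bp. The higher scoring CTCFL peak was the nearer to the CTCF centre in 60.6% of sites (56.9 to 64.2). The CTCF peaks were wide at these sites, with a median of 967 bp against 523 bp in simple pairs, and ranked higher, at percentile 87.4 against 75.6. The 205 sites with 2 CTCF peaks and 1 CTCFL peak had CTCF centres 451.5 bp apart and a gap of 47 bp, and their CTCF peaks ranked lower, at percentile 49.9.

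Within 3T3, the share of CTCF peaks that held several CTCFL peaks rose with CTCF width. In all, 850 of the 9660 CTCF peaks with CTCFL, 8.80% (8.24 to 9.38), held more than 1. The share was 1.71% up to 500 bp, 9.55% from there to 1000 bp, 26.3% to 1500 bp and 54.2% (47.3 to 60.9, 216 peaks) beyond. It fell to 3.29% (2.93 to 3.68) when peaks of a list under 200 bp apart were merged, to 4.50% among peaks that scored 100 or more, and to 0 by construction when the overlap had to cover 50% of both peaks. In P19 it was 0.504% (0.308 to 0.777), although P19 CTCF peaks were wider, with a list median of 636 bp against 342 bp. The P19 CTCFL list was also the shorter, and the part of either in this value was not tested.

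The most partners found was 4. The CTCF peak at chromosome 1 193729931 to 193731803 (score 3100) held CTCFL peaks with scores of 165, 66.6, 98.5 and 570 at offsets of -689, -142.5, 182 and 641.5 bp. At chromosome 14 115440036 to 115441755 (score 2092) the 4 CTCFL scores were 270, 54.7, 203 and 451, the first at the edge and 990.5 bp from the centre. At chromosome 17 4994822 to 4996859 (score 564) they were 153, 66.7, 229 and 68.0. In each of these the strongest CTCFL peak was not the most central. All 3 CTCF peaks had P19 CTCF, and the first and second had P19 CTCFL. The reverse extreme was a CTCFL peak of 841 bp on chromosome 11, 50038467 to 50039307 (score 364), which touched 3 CTCF peaks with scores of 210, 552 and 89.3. Another, on chromosome 19 at 34266866 to 34267244 (score 197), touched 3 CTCF peaks with scores of 91.6, 72.9 and 58.2. Neither had a P19 peak of either factor.

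**Figure D4:**
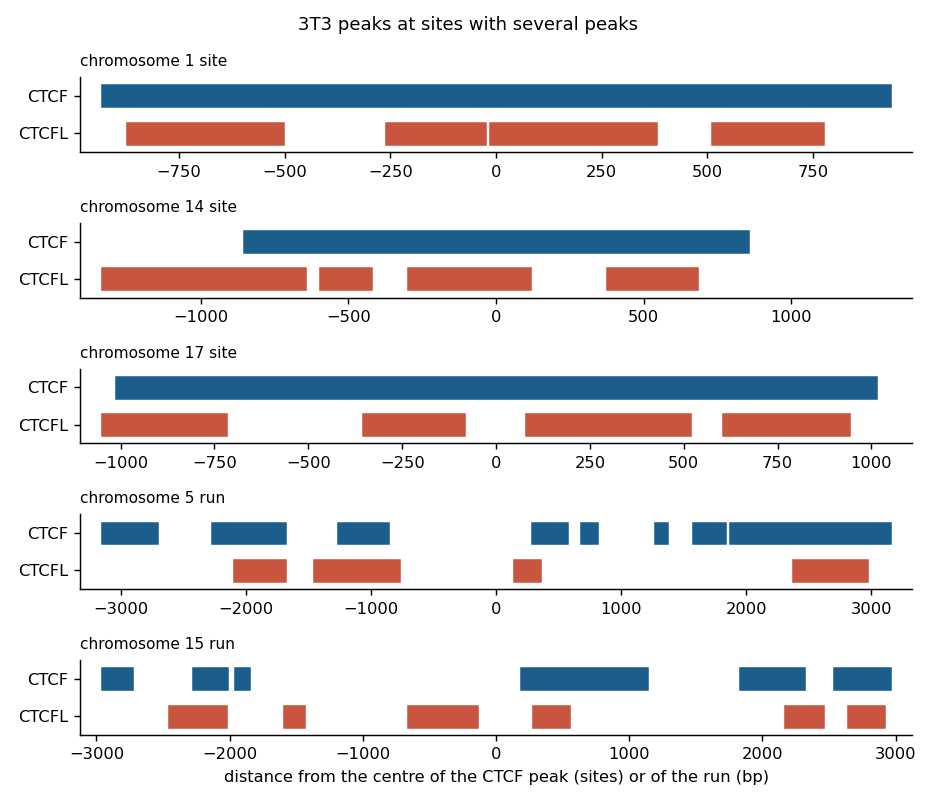
Peaks of CTCF (blue) and CTCFL (red) in 3T3 at the 3 CTCF peaks with 4 CTCFL peaks and at the 2 longest runs, drawn to scale against distance from the centre of the CTCF peak or the run (horizontal axis, bp). CTCFL peaks are spread over the CTCF peak at each site, and the runs hold 8 CTCF with 4 CTCFL peaks and 6 with 6.

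CTCFL peaks without CTCF were often near a CTCF peak. The nearest CTCF peak was 5520 bp away at the median (5217 to 5841), edge to edge. It was within 200 bp for 436 of the 6494 peaks, 6.71% (6.12 to 7.35), within 1 kb for 1261, 19.4% (18.5 to 20.4), and within 10 kb for 4138, 63.7% (62.5 to 64.9). With both lists cut to 16764 peaks the last share was 37.0% (36.1 to 38.0), over a class that had also changed, as CTCFL peaks with CTCF then made up 41.0%. From CTCF peaks without CTCFL the nearest CTCFL peak was 23158 bp away (22665 to 23684), and 32.1% (31.6 to 32.5) had it within 10 kb. The CTCF list is the longer, so these distances are not set against each other.

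Nearness to CTCF did not go with stronger or wider CTCFL peaks in this class. Median CTCFL score was 67.5 for gaps under 200 bp and 67.9 for gaps of at least 10 kb, and median width 247 and 249 bp. What differed was the neighbour. The nearest CTCF peak itself carried a CTCFL peak for 36.3% (31.8 to 41.0) of the CTCFL peaks at a gap under 200 bp, 29.7% at 200 to 1000 bp, 21.6% at 1 to 5 kb and 18.5% (16.9 to 20.1) beyond 10 kb. Over all CTCF peaks 21.2% carried CTCFL.

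CTCF peaks without CTCFL differed in their P19 status by the distance to CTCFL. A P19 CTCF peak was found at 24.2% (21.2 to 27.4) of the 768 such peaks under 200 bp from a CTCFL peak, at 28.8% between 200 and 1000 bp, and at 49.1% (48.5 to 49.8) of the 24454 peaks at least 10 kb away. Their median CTCF scores were 88.6, 88.7 and 95.7 in that order. Over all distances, 16328 of the 35993 CTCF peaks without CTCFL had a P19 CTCF peak.

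The strongest CTCFL peaks without CTCF but with a CTCF peak nearby were at chromosome 11 97561367 to 97561980, chromosome 2 109533561 to 109534068 and chromosome 6 119057294 to 119057966. The first scored 344, lay 532 bp from a CTCF peak of score 83.8, and had a P19 CTCFL peak. The second scored 307 and lay 830 bp from a CTCF peak of 461, and the third scored 302 and lay 303 bp from a CTCF peak of 1509. Both of these CTCF peaks carried another CTCFL peak, and neither CTCFL peak was found in P19. No CTCF peak lay within 100 kb of 230 CTCFL peaks, 1 of them the mitochondrial peak. The strongest were chromosome 10 87609640 to 87609978 (score 258, 157112 bp from CTCF, with a P19 CTCFL peak), chromosome 8 87822784 to 87823407 (score 174, 108515 bp) and chromosome X 40781582 to 40781698 (score 130, 800439 bp).

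**Figure D5:**
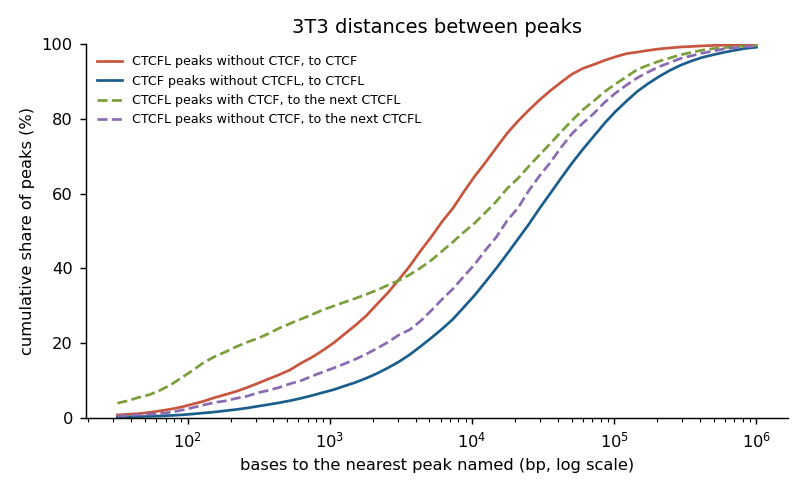
Cumulative share of 3T3 peaks (vertical axis, %) with the nearest peak of the kind named within the distance on the horizontal axis (bp, log scale), for peaks without the other factor (solid lines) and for CTCFL peaks to the next CTCFL peak (dashed lines). CTCFL peaks with CTCF run above those without at short distances, 29.6% against 13.0% at 1000 bp.

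In the lists as deposited, CTCFL peaks with CTCF had close CTCFL neighbours more often than those without. The next CTCFL peak was within 10 kb for 51.5% (50.6 to 52.5) of peaks with CTCF and 40.4% (39.2 to 41.6) of those without, a difference of 11.1 points (9.57 to 12.7). Peaks lying almost end to end made up much of it. Within 200 bp there was a neighbour for 18.5% against 5.04%, and merging peaks under 200 bp apart left 39.9% against 37.4%, 2.52 points (0.956 to 4.09). Averaged over score groups the unmerged difference was 6.27 points (2.89 to 9.87). It was 9.99 points (7.64 to 12.3) without the highest group, which held only 32 peaks without CTCF. The direction turned, to -4.36 points (-5.93 to -2.80), with an overlap of 50% of both peaks. A score limit of 100 left 3.89 points (1.24 to 6.44). With merging and score groups together the difference was 0.654 points, and its interval, -3.29 to 4.35, included 0. Without the highest group, then with 28 peaks without CTCF, it was 2.52 points (-0.0638 to 5.02).

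In the lists as deposited, CTCF peaks showed a difference in the same direction, which was smaller within 10 kb. This order did not hold under every alternative. A CTCF neighbour within 10 kb was found for 67.9% (67.0 to 68.9) of those with CTCFL and 61.5% (61.0 to 62.0) of those without, 6.44 points apart (5.37 to 7.50). Merging left 2.28 points (1.13 to 3.41), with an interval that overlapped that of CTCFL, and a limit of 100 on both scores left 2.31 points (0.691 to 3.93). With an overlap of 50% of both peaks it was 4.94 points (3.68 to 6.19), where the CTCFL difference had turned to -4.36 points. Averaged over score groups it was 3.99 points (2.77 to 5.19). With merging and score groups together the direction turned, to -0.829 points (-2.14 to 0.477), with 0 in the interval. Without the highest score group it was 1.41 points (0.0216 to 2.78). Within 1 kb the merged and averaged difference was 3.51 points (2.50 to 4.54), and for CTCFL 0.691 points (-3.01 to 3.58). In P19 the difference within 10 kb in the lists as deposited was 10.5 points (8.78 to 12.1), and for CTCFL 1.52 points (-0.703 to 3.70). With merging and score groups together these P19 values were 6.55 points (4.78 to 8.31) and 0.0778 points (-2.77 to 2.60).

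Most runs of peaks held both factors. Joining all 3T3 peaks with gaps of at most 1 kb gave 11904 runs of 2 or more peaks, of which 9467 had CTCF and CTCFL. Among the 471 runs of 5 or more peaks 459 had both, and in P19 17 of 18 did. The rule favours this: peaks of both lists are counted, so an overlapping pair is already 2 peaks, and long runs tend to be mixed. Runs of at least 2 peaks with CTCFL alone numbered 146, and those with CTCF alone 2291. The longest runs had 12 peaks. The run at chromosome 5 58105146 to 58111473 held 8 CTCF peaks with scores from 50.5 to 3100 and 4 CTCFL peaks from 65.0 to 1883. All 4 CTCFL peaks and 4 of the CTCF peaks were shared. The run at chromosome 15 76023507 to 76029451 held 6 CTCF peaks from 74.5 to 2649 and 6 CTCFL peaks from 54.7 to 565, of which 4 of each were shared. In each run 3 CTCF peaks and 2 CTCFL peaks had a P19 peak of the same factor.

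By chromosome, the share of CTCFL peaks on CTCF ran from 57.1% on chromosome 4 to 69.3% on chromosome 1 among the 19 autosomes (61.8 ± 3.62, SD over chromosomes), and was 74.7% (68.3 to 80.3) on X, from 162 of 217 peaks. From the CTCF side, chromosome 1 was the lowest autosome at 16.5% and chromosome 19 the highest at 24.4%. Chromosome 1 thus combined the highest autosomal share of CTCFL peaks on CTCF with the lowest share of CTCF peaks with CTCFL. The centre offset was even, with autosomal medians of 51.5 bp on chromosome 19 to 66 bp on chromosome 8, and 61.3 bp on X. CTCFL peaks without CTCF had a CTCF peak within 10 kb in 41.4% of cases on chromosome 13 (33.7 to 49.4) and 72.9% on chromosome 7 (68.4 to 77.1).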

How the data were processed

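Per the labels, libraries were made from 10 ng of DNA immunoprecipitated with antibody N2.2 (CTCF) or S6 (CTCFL). MACS 1.4, Bowtie, SAMtools and FastQC are named in the submitters' processing notes, as are mm9 and hg19, without roles. From the organism, mm9 was used as the build. For aligner settings, depth, control library and pooling the sources used here give nothing. Each deposited list gives positions and the score of the authors' peak caller, read as −10 times the log10 of its p-value. The score was used only within a list. A score of exactly 3100 recurs in 505 CTCF and 4 CTCFL peaks of the 3T3 lists. Counting higher scores as well, 567 CTCF and 6 CTCFL peaks scored 3100 or more, up to 3233 and 3205. Peaks tied at 3100 shared 1 rank, and those above it were ranked by score.

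Positions are counted from 1. Overlap of at least 1 bp, joined sites, midpoint offsets and edge-to-edge gaps were computed in Python 3.11.15 with numpy 2.4.6, pandas 2.3.3 and SciPy 1.17.1, and figures with matplotlib 3.10.9. In simulated lists 5 of 5 planted values were recovered, and 16 of 16 counts and distance lists equalled those of bedtools 2.31.1. Intervals of differences combine the exact ones. Score groups are 10 equal groups of a list. The 1 mitochondrial CTCFL peak was kept in the counts.

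The comparison, its measures and its rules were chosen with earlier results of these data known. Named regions are the extremes of partner number, summed rank, offset, rank difference, score by distance to CTCF, and run length. Alternatives were an overlap of 50% of both peaks, scores of at least 100, merging within 200 bp and lists of equal length. Averages over score groups, alone and with merging, were added after the data were seen. No genome or annotation of this build and no protein table was used here, so genes, motifs and sequences are not given and a planned protein comparison was not run.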

Additional observations from a re-analysis of the deposited data

Results flagged for a closer look

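Of 4 contrasts of same-list neighbours computed in both cell lines, 1 had opposite signs. The share of CTCFL peaks with another CTCFL peak within 1000 bp was higher with CTCF than without in 3T3, 29.6% against 13.0%, a difference of 16.6 points (15.4 to 17.8). In P19 it was 4.72% against 5.36%, a difference of -0.65 points (-1.93 to 0.554), whose interval includes 0. No test of the gap between the lines was made, as each has 1 library per factor. After merging peaks under 200 bp apart the 3T3 difference was 5.15 points (4.16 to 6.14) and that of P19 -0.77 points (-1.88 to 0.265). With merging and an average over score groups together the 3T3 difference was 0.691 points (-3.01 to 3.58) and that of P19 -0.366 points (-1.89 to 0.635), and both intervals include 0. The highest score group then held only 28 peaks without CTCF in 3T3 and 58 in P19. Without that group the differences were 4.31 points (2.31 to 5.96) in 3T3 and -1.15 points (-2.61 to -0.0494) in P19.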

How the results depend on the processing

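No paired analysis was possible because a group is 1 library, and for that reason none could be left out. Under the alternatives chosen first, 1 value was inside the interval of its result, 26 were outside and 1 had the opposite sign, and of the 4 averages over score groups, all added later, 3 were outside and 1 had the opposite sign. The causes of these shifts were not tested, except where the rule itself removes weak or divided peaks. In the order of overlap of 50% of both peaks, a score limit of 100, merging and equal list length, the values were as follows. CTCFL peaks with CTCF made up 37.8%, 78.1%, 59.9% and 41.0%. Simple pairs made up 100%, 94.2%, 96.4% and 87.8% of shared sites. The median centre offset was 52, 66, 69.5 and 64 bp. Several CTCFL peaks were held by 0%, 4.50%, 3.29% and 11.7% of CTCF peaks with CTCFL. CTCFL peaks without CTCF had CTCF within 10 kb in 77.4%, 46.4%, 63.0% and 37.0% of cases. The neighbour difference was -4.36 (reversed), 3.89, 2.52 and 9.51 points for CTCFL and 4.94, 2.31, 2.28 and 3.97 points for CTCF. Averaged over score groups these differences were 6.27 and 3.99 points, and with merging as well 0.654 and -0.829 points (reversed), both with 0 in their interval. With merging and without the highest score group the averages were 2.52 points (-0.0638 to 5.02) for CTCFL and 1.41 points (0.0216 to 2.78) for CTCF. Unknown depth limits all lists: a site without a peak may hold signal below the caller's threshold.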
